A study of Mus musculus with 4 samples.

Results

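The enzymes described here convert steroid hormones in the liver. They are the 3-beta-hydroxysteroid dehydrogenases Hsd3b2, Hsd3b3 and Hsd3b5, the glucocorticoid-activating enzyme Hsd11b1, the 17-beta-hydroxysteroid dehydrogenases Hsd17b2 and Hsd17b6, the aldo-keto reductase Akr1c6, the steroid 5-alpha-reductase Srd5a1 and the cytochrome P450 Cyp17a1. The 9 genes were listed by symbol, and every probe set whose single gene symbol in the platform annotation was one of them was taken. This gave 10 probe sets for 8 of the 9 genes, out of 18193 genes with a named probe set. No probe set was named for Srd5a1, which was not analysed here. Where a gene had more than 1 probe set, the brightest over the 4 arrays stood for it.

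RNA came from whole liver slices of 4 male mice aged 9 months, raised on chow without intervention, in a series concerned with nonalcoholic fatty liver disease. AB6F1 males (n = 2) were born to AJ dams mated with B6 sires. B6AF1 males (n = 2) came from the reciprocal cross, with dams of strain B6 and sires of strain AJ. Both are first-generation hybrids of the same inbred strains, so their autosomes are the same mix, whereas the X and Y chromosomes, the mitochondria and the parental origin of imprinted alleles are exchanged. Per the labels, the 2 males of a cross are biological replicates. The question asked of each enzyme was whether its transcript differed with the direction of the cross, and differences are given as AB6F1 minus B6AF1.

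Liver takes up steroids from the blood and reduces, oxidises or conjugates them. Hydroxysteroid dehydrogenases move a steroid between its active and inactive form by exchanging a hydroxyl and a keto group. Several of these enzymes differ between male and female mouse liver, where the sex-dependent pattern of growth hormone secretion sets much of the difference. Hsd3b5 is the best known of them here and is found mainly in male mouse liver.

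The genes Hsd3b4, Hsd3b5, Hsd3b2, Hsd3b3, Hsd3b6 and Hsd3b1 follow one another in one cluster on mouse chromosome 3. The start regions of the 3 members of this cluster are printed because these members lay lower on every AB6F1 array. Each runs 5′ to 3′ from 250 bases before the transcription start to 50 bases after it, from RefSeq, assembly GRCm38.p6. Capitals mark stretches of 12 or more bases that occur unbroken in one of the other two. Hsd3b5 is at chr3:98645485-98645784, Hsd3b2 at chr3:98724494-98724793 and Hsd3b3 at chr3:98763079-98763378, all on the minus strand.
Hsd3b5: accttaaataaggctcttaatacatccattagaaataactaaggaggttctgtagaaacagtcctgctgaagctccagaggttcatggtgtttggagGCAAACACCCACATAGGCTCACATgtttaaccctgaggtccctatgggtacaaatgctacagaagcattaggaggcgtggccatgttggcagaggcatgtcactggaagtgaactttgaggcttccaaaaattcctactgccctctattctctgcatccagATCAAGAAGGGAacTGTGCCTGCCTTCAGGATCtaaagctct
Hsd3b2: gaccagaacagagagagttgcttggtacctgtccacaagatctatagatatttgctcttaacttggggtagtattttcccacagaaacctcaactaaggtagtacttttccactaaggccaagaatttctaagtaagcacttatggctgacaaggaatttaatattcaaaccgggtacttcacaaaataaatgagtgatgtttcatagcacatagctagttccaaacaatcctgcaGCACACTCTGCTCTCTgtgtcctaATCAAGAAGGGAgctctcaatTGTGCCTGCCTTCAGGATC
Hsd3b3: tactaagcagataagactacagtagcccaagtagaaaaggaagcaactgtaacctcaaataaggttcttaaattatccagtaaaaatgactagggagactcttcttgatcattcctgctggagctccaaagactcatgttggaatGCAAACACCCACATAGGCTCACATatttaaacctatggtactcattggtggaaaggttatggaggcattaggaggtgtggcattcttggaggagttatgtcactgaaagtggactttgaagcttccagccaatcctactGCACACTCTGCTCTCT

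Hsd3b5 and Hsd3b3 shared an unbroken run of 24 bases before their starts, and Hsd3b5 and Hsd3b2 shared a run of 19 bases after theirs. Hsd3b2 and Hsd3b3 shared 16 bases. The longest shared run was 7 to 11 bases in the 21 other pairs of Hsd3b start regions and 6 to 10 bases in 49 pairs that held a start region of Hsd11b1, Hsd17b6, Srd5a1 or Akr1c6. RefSeq gives Hsd3b3 a second start, and its region was 98.7% identical to the one printed. Both strands were searched for 5 sequence motifs, none of which contains another. The STAT5 motif TTCNNNGAA, found in 8.3% of 32851 promoters of the same length, the FOXA motif TGTTTAC (3.6%), the HNF6 motif ATTGAT (7.5%) and the TATA box TATAAA (13.6%) had no match in these 3 windows. The steroid receptor half-site AGAACA (19% of promoters) occurred once, in Hsd3b2. A match or its absence describes only the letters of these windows.

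The arrays carried 45101 probe sets, and each had been scaled to a trimmed mean signal of 500. Of the 18193 genes, 11748 were tested, those whose mean log2 signal reached the probe set median, which corresponds to a signal of 60.9. All 8 measured enzymes were among them, but Hsd3b5 reached the limit only through the B6AF1 arrays. Pairs of arrays correlated at 0.961 to 0.975 (log2 signal, across genes). Detection calls were not used here, so a signal near or under 60.9 has an uncertain size. With 2 arrays against 2, an exact permutation test of one gene cannot reach a p below 0.333, so the number of arrays limits the precision. The mice of each cross have their own range of source identifiers, so an effect of the cross and one of when or how livers were taken cannot be told apart.

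The transcripts of 7 of the 8 measured enzymes were lower in AB6F1 livers on average, with Hsd3b5 the most negative, and with Hsd3b2 at 66.5% and Hsd3b3 at 63.3% of their B6AF1 levels (geometric means). None of these differences passed the test across all genes. Hsd3b5, with the smallest p of the 8, had an adjusted p of 0.0721 (limma, Benjamini-Hochberg over 11748 genes, threshold 0.05). With the robust variance setting of limma its adjusted p was 0.300, and Hsd3b3 then had a smaller p. Without the intensity trend in limma the adjusted p of Hsd3b5 was 0.397. Hsd17b2, which inactivates oestradiol and testosterone, was at nearly the same level in both crosses. Hsd17b6 and Cyp17a1 varied more between the 2 mice of a cross than between the crosses.

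**Figure D1:**
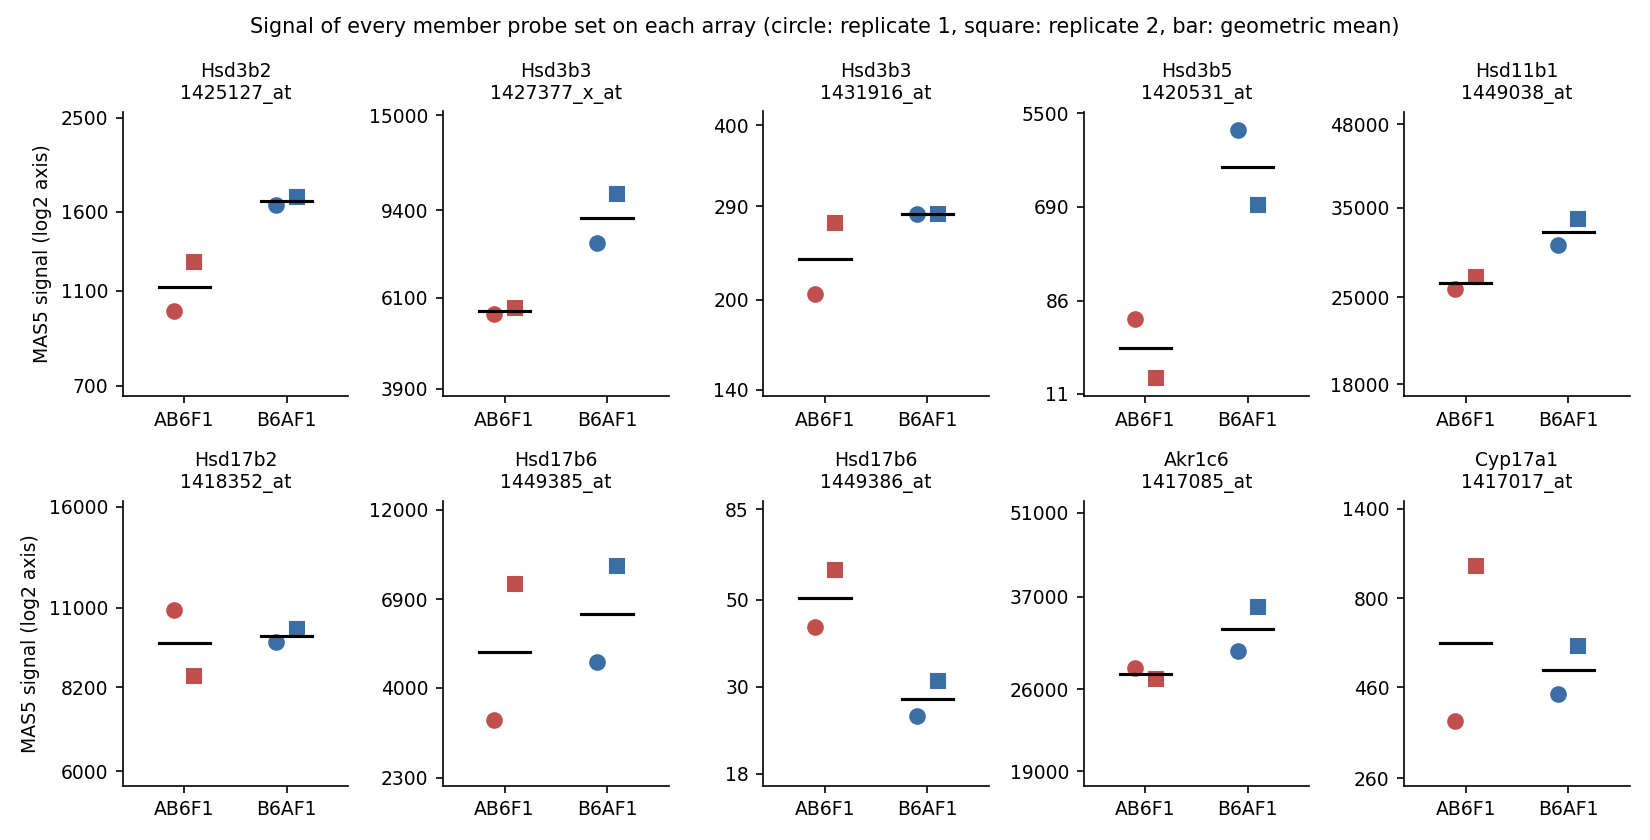
MAS5 signal (log2 axis, a separate scale for each panel) of the 10 probe sets of the steroid hormone enzymes on each array, AB6F1 left and B6AF1 right, with replicate 1 as a circle, replicate 2 as a square and the geometric mean as a bar. The AB6F1 points lie below both B6AF1 points for Hsd3b2, Hsd3b3, Hsd3b5, Hsd11b1 and Akr1c6, and those of Hsd17b2, Hsd17b6 (1449385_at) and Cyp17a1 overlap.

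Hsd3b5 works in mouse liver mainly as a 3-ketosteroid reductase, which inactivates dihydrotestosterone. Its probe set 1420531_at read 57.7 and 15.5 in AB6F1 livers, against 3819.2 and 725.3 in B6AF1 livers. Both AB6F1 signals lay under the limit of 60.9, and even the lower B6AF1 liver was far above the higher AB6F1 liver. Means were 36.6 ± 29.8 in AB6F1 and 2272 ± 2188 in B6AF1 (SD, n = 2 each). The log2 difference was -5.80 ± 0.85 (SE), with a 95% interval of -7.82 to -3.78, and no fold is given because the AB6F1 signals are at the dim end of the array, which leaves the size of the difference uncertain. With 16 added to every signal before taking logs, the log2 difference was -5.13 (limma adjusted p = 0.0644).

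The B6AF1 mice were far apart in Hsd3b5, with 5.27 times as much signal in the higher liver as in the lower. Of the AB6F1 pair, both under the limit, no ratio is given. Whether Hsd3b5 passed depended on single arrays, but so did the number of calls among all genes. Without AB6F1 replicate 1 Hsd3b5 passed at a log2 difference of -6.75 (limma adjusted p = 0.00546), and without AB6F1 replicate 2 it passed at -4.85 (limma adjusted p = 0.0178). Without B6AF1 replicate 1 the difference was -4.60, and without B6AF1 replicate 2 it was -7.00. In these fits the lone array of a cross is assumed to vary like the other cross.

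Hsd3b2 and Hsd3b3 are dehydrogenase-isomerases of mouse kidney and liver, which turn delta-5 steroids such as dehydroepiandrosterone into their delta-4 forms. Hsd3b2 (1425127_at) read 997.3 and 1259.2 in AB6F1 livers, against 1651.3 and 1718.6 in B6AF1 livers. Both AB6F1 livers were below both B6AF1 livers, and the B6AF1 pair lay close together. Means were 1128 ± 185 in AB6F1 and 1685 ± 47.6 in B6AF1 (SD, n = 2 each). On the log2 scale the difference was -0.59 ± 0.16 (SE), with a limma adjusted p of 0.333. With each array left out in turn the log2 difference ran from -0.76 without AB6F1 replicate 2 to -0.42 without AB6F1 replicate 1. Whether Hsd3b2 passed depended on which array was left out, as did the number of calls among all genes.

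Hsd3b3 (1427377_x_at) read 5626.9 and 5803.1 in AB6F1 livers, against 8002.4 and 10185.4 in B6AF1 livers. The AB6F1 livers were nearly alike and both lay below the B6AF1 livers. The log2 difference was -0.66 ± 0.14 (SE; limma adjusted p = 0.221). The suffix x marks probes that can also bind related transcripts, and the Hsd3b genes are close relatives. The second probe set of Hsd3b3, 1431916_at, was dim, at 204.5 and 271.6 in AB6F1 against 281.8 and 280.8 in B6AF1. Its log2 difference was -0.26 ± 0.25 (SE; limma adjusted p = 0.801 over probe sets). One AB6F1 liver was close to the B6AF1 pair there. One further probe set carries several Hsd3b symbols, members among them, and was not used.

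**Figure D2:**
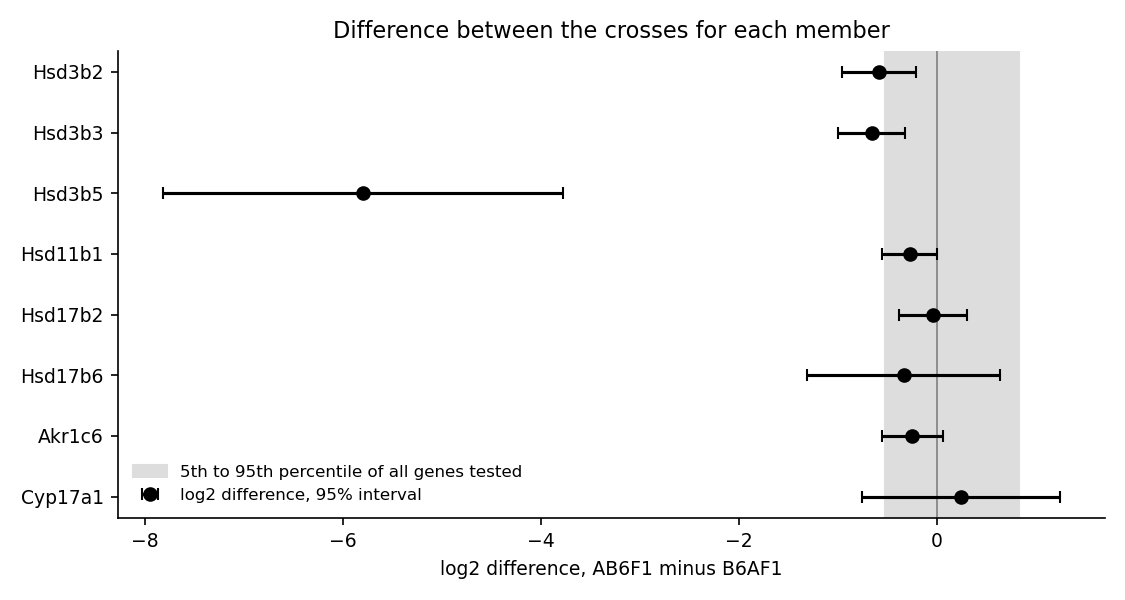
Log2 difference (AB6F1 minus B6AF1) of each of the 8 measured enzymes, with its 95% interval from limma as bars; the grey band spans the 5th to the 95th percentile of all genes tested, -0.52 to 0.83. The intervals of Hsd3b5, Hsd3b2, Hsd3b3 and, barely, Hsd11b1 lie below 0, without adjustment for the number of genes.

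Hsd11b1 regenerates active corticosterone from 11-dehydrocorticosterone in the liver, with NADPH that H6pd supplies. It read 25790.2 and 26964.3 in AB6F1 livers, against 30426.8 and 33562.1 in B6AF1 livers (1449038_at). Each pair was tight and the crosses did not overlap. The transcript was 1.21-fold lower in AB6F1, or -0.28 ± 0.12 as a log2 difference with its SE (95% interval -0.55 to -0.00041; limma adjusted p = 0.513). After cyclic loess the log2 difference was -0.17. H6pd read 7425.9 and 5579.3 in AB6F1, against 6574.1 and 8845.3 in B6AF1, so that its crosses overlapped, and differed by -0.24 ± 0.19 on the log2 scale (SE; limma adjusted p = 0.720). The opposing enzyme Hsd11b2, which inactivates glucocorticoids in kidney, read 25.1 and 79.9 in AB6F1 livers, against 38.3 and 33.1 in B6AF1 livers, below the limit on average.

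Akr1c6 makes testosterone from androstenedione in mouse liver. Its signal was 28157.2 and 26995.4 in AB6F1 livers, against 30091.4 and 35598.9 in B6AF1 livers (1417085_at). The crosses did not overlap, but the higher AB6F1 liver was close to the lower B6AF1 liver. The log2 difference was -0.25 ± 0.13 (SE; 95% interval -0.55 to 0.056; limma adjusted p = 0.592). Without B6AF1 replicate 2, the higher of the B6AF1 livers, it was -0.13, after cyclic loess -0.14 and after median centring -0.39.

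Hsd17b2 oxidises oestradiol to oestrone and testosterone to androstenedione, the reverse direction to Akr1c6. It read 10912.2 and 8538.6 in AB6F1 livers, against 9679.3 and 10183 in B6AF1 livers (1418352_at). The AB6F1 pair lay on either side of the B6AF1 pair. The log2 difference was -0.04 ± 0.14 (SE; limma adjusted p = 0.949), and it was 0.0015 after quantile normalization and 0.031 after cyclic loess, so its sign is not settled. The 95% interval was -0.38 to 0.30 under the deposited scaling, and after median centring the difference was -0.18 ± 0.17 (SE).

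Hsd17b6 oxidises androstanediols, in mice a route back towards dihydrotestosterone. Its bright probe set 1449385_at read 3282.1 and 7578.4 in AB6F1 livers, against 4687.7 and 8457.5 in B6AF1 livers. Each cross held a low and a high liver, 2.31-fold apart in AB6F1 and 1.80-fold apart in B6AF1, and the crosses overlapped. The log2 difference was -0.34 ± 0.41 (SE; 95% interval -1.31 to 0.64; limma adjusted p = 0.824). It turned to 0.27 without AB6F1 replicate 1 and to 0.089 without B6AF1 replicate 2. The other probe set, 1449386_at, read 42.6 and 59.5 in AB6F1 against 25.2 and 31.1 in B6AF1. These signals run the other way but lie under the limit on all 4 arrays, and were not tested.

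Cyp17a1 carries out the 17-alpha-hydroxylation and the side-chain cleavage that lead to androgens, and is best known from the gonads. It read 372.8 and 981.5 in AB6F1 livers, against 440.8 and 594 in B6AF1 livers (1417017_at). The AB6F1 livers held both the lowest and the highest value. The log2 difference was 0.24 ± 0.42 (SE; 95% interval -0.76 to 1.24; limma adjusted p = 0.879), and it became 0.94 when AB6F1 replicate 1 was left out and -0.46 when AB6F1 replicate 2 was. The pooled replicate SD of Cyp17a1 was 0.73 and that of Hsd17b6 was 0.74 on the log2 scale, larger than in 94.7% and 94.8% of the genes tested, where the median was 0.19. Hsd3b5 had the largest SD of the enzymes, 1.53, above that of 99.5% of the genes tested, with its dim AB6F1 signals included. For Hsd11b1 and Akr1c6 the SD was 0.078 and 0.12.

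**Figure D3:**
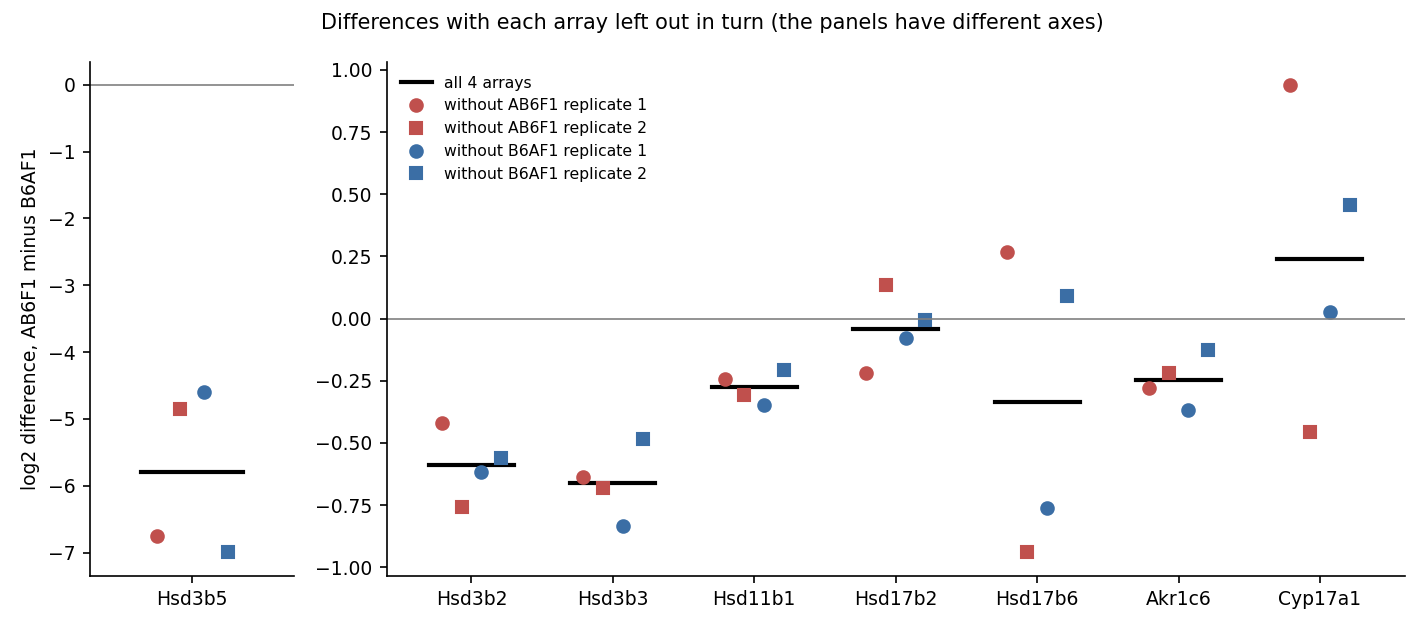
Log2 difference (AB6F1 minus B6AF1) of each enzyme from all 4 arrays (black bar) and with each array left out in turn (red for an AB6F1 array, blue for a B6AF1 array; Hsd3b5 has its own axis). Hsd3b5 stays between -7.00 and -4.60 and Hsd3b2 and Hsd3b3 stay below 0, whereas Hsd17b2, Hsd17b6 and Cyp17a1 fall on both sides of 0.

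Set against all genes, 0.213% of those tested passed limma, 0.136% higher and 0.0766% lower, and no enzyme passed. Of probe sets tested one by one 0.16% passed, and no enzyme probe set did. At an unadjusted p under 0.05 there were 4 enzymes, Hsd3b2, Hsd3b3, Hsd3b5 and Hsd11b1, all lower, where 3.88% of all genes were called lower at that p. Hsd11b1 was just inside, at an unadjusted limma p of 0.0497. It lay outside after quantile normalization (0.0766), after cyclic loess (0.167), with no filter (0.0919) and without the trend (0.134), which left 3 enzymes in each. Its unadjusted limma p was also above 0.05 with replicate number as a block (0.0967) and with the mean of all probe sets of a gene (0.0608). The same held with probe sets tested separately (0.0555) and with no x or s probe sets (0.0533). Over the alternatives that kept all 4 arrays 2 to 4 enzymes were at such a p, all lower. Without probe sets of suffix x or s, Hsd3b3 was not among them. With 1 array left out the set changed, and not every enzyme in it was lower. For 5 of the 8, all lower, every AB6F1 array read below every B6AF1 array, where 18.7% of all genes were apart in that direction. Negative differences were found for 7 of 8, against 46.5% of all genes, and for 6 of 8 after quantile normalization or cyclic loess, where Hsd17b2 changes sign. The median log2 difference was -0.31 for the 8 and 0.02 for all genes tested. These counts describe the enzymes and are not tests: Hsd3b5 could enter only by being high in one cross, and the Hsd3b probes may share targets.

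**Figure D4:**
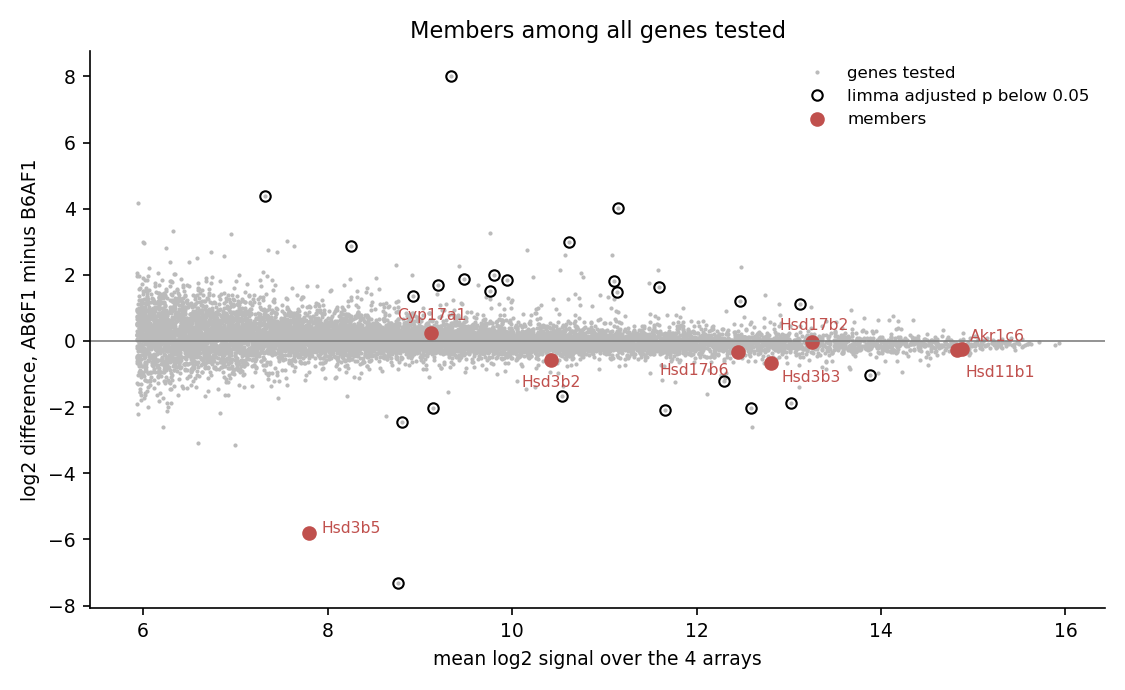
Log2 difference (AB6F1 minus B6AF1) against mean log2 signal for the 11748 genes tested (grey), the 25 that passed limma (open circles) and the 8 enzymes (red). Hsd3b5 lies at -5.80, with AB6F1 signals too dim to set its exact place, and the other 7 enzymes lie within 0.66 of 0 over a wide range of brightness.

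Where whole liver is sampled, fewer cells of a type and less RNA per cell cannot be told apart. Of the 10 tested hepatocyte markers 9 were lower in AB6F1 and none passed limma, and their median log2 difference was -0.11. That direction depends on the scaling, since 7 of 10 were lower after quantile normalization (median -0.02), 4 of 10 after cyclic loess (median 0.01) and 10 of 10 after median centring (median -0.24). Albumin (Alb) was at -0.16 ± 0.13 (log2, SE). Cps1, of the urea cycle, had the smallest p of the list and was at -0.33 ± 0.12, well below the list median of -0.11. Tat was the most negative of the list, at -0.60 ± 0.28. Summed over the list, the AB6F1 arrays reached 351305 and 330506, against 352036 and 404258 for the B6AF1 arrays, and the crosses were apart by a narrow margin. These values stand beside the -0.28 of Hsd11b1 and the -0.25 of Akr1c6, and their part in those differences was not tested. Macrophage markers were higher for 10 of 11 tested, and none passed. Over all 13 measured macrophage markers the signals summed to 17583.9 and 11166.7 in AB6F1 against 7637.6 and 10583 in B6AF1. Stellate cell and fibroblast markers were higher for 10 of 12, summing to 18352 and 22529.2 in AB6F1 against 15169.3 and 14263.4 in B6AF1, and 2 of them, the collagens Col3a1 and Col1a2, passed (1 after quantile normalization). Endothelial markers were higher for 6 of 8 (4 of 8 after median centring) and cholangiocyte markers for 3 of 3, and none passed.

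Markers of adrenal and gonadal steroid-producing cells were looked at because such cells also carry Hsd3b enzymes and, in the gonads, Cyp17a1. Of the 7 with a probe set only Star, the mitochondrial cholesterol carrier, reached the limit. It read 246.6 and 99.6 in AB6F1, against 218.4 and 35.6 in B6AF1, with overlapping crosses. Cyp11a1, which starts steroid synthesis, read 100.3 and 31.2 in AB6F1, against 54.7 and 53.1 in B6AF1, and the adrenal 21-hydroxylase Cyp21a1 was under 60.9 on all arrays. Of 7 kidney tubule markers 1 reached the limit. Of 4 pancreatic acinar markers with a probe set 2 reached it. The elastase Cela1 fell, with 1458.5 and 1675.1 in AB6F1 against 6574.1 and 6805.5 in B6AF1 (limma adjusted p = 0.0043), Cela2a was at 0.25 ± 0.56 (log2, SE), and Cpa1 and Ctrb1 were under 60.9 on all arrays.

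No listed hydroxysteroid dehydrogenase or steroid reductase outside the 8 measured enzymes passed either. Of the rest of the Hsd3b family, Hsd3b7, a bile acid synthesis enzyme, was at -0.32 ± 0.12 and Nsdhl, of cholesterol synthesis, at -0.07 ± 0.17 (log2, SE), and neither passed (smallest limma adjusted p = 0.472). Hsd3b1, the gonadal and adrenal form, was listed at 9.1 and 10.3 in AB6F1, against 7.8 and 5.9 in B6AF1. Among 10 tested Hsd17b and related enzymes 5 were higher and 5 lower (2 and 8 after median centring), with a median of -0.03 and none past limma. The cholesterol synthesis enzyme Hsd17b7 was at -0.47 ± 0.14 (limma adjusted p = 0.359) and the lipid droplet protein Hsd17b11 at -0.38 ± 0.15 (limma adjusted p = 0.482). Among 8 tested aldo-keto and steroid reductases 4 were higher and 4 lower (median -0.06; 3 and 5 under each other scaling). Akr1c14, a 3-alpha-hydroxysteroid dehydrogenase, was at -0.28 ± 0.13, Akr1c12 at -0.28 ± 0.17, Akr1c13 at -0.19 ± 0.11 and Akr1c20 at 0.17 ± 0.11, and none passed (smallest limma adjusted p = 0.544). Of 6 tested P450 partners and early steps 5 were lower (median -0.04, none past limma), but the median was 0.03 after quantile normalization and 0.06 after cyclic loess.

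Sulfation, which makes steroids water-soluble, held 1 gene that passed. The 4 tested genes of that list all had positive differences (median 0.25), although 2 turned negative after median centring, and Sult2a2, which sulfates hydroxysteroids such as dehydroepiandrosterone, rose in AB6F1 with 7770.7 and 13875.1 there against 24.8 and 65.4 in B6AF1 (limma adjusted p = 0.0043). The first B6AF1 value is under the limit of 60.9. Among 6 tested steroid receptors and carriers none passed. The smallest p was that of the xenobiotic receptor Nr1i3 (CAR), at -0.41 ± 0.15 (limma adjusted p = 0.452), with both AB6F1 livers below both B6AF1 livers. The corticosterone carrier Serpina6 was at 0.61 ± 0.25, the oestrogen receptor Esr1 at 0.30 ± 0.16, the mineralocorticoid receptor Nr3c2 at 0.39 ± 0.22 and the glucocorticoid receptor Nr3c1 at -0.15 ± 0.12 (log2, SE). Of 17 tested genes that glucocorticoids induce, 7 were higher and 10 lower, with a median of -0.14 and none past limma. They went both ways: metallothionein Mt2 was at 2.75 ± 0.71, Sgk1 at 0.45 ± 0.16, Angptl4 at -0.74 ± 0.23 and the aspartate aminotransferase Got1 at -0.64 ± 0.24 (log2, SE).

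**Figure D5:**
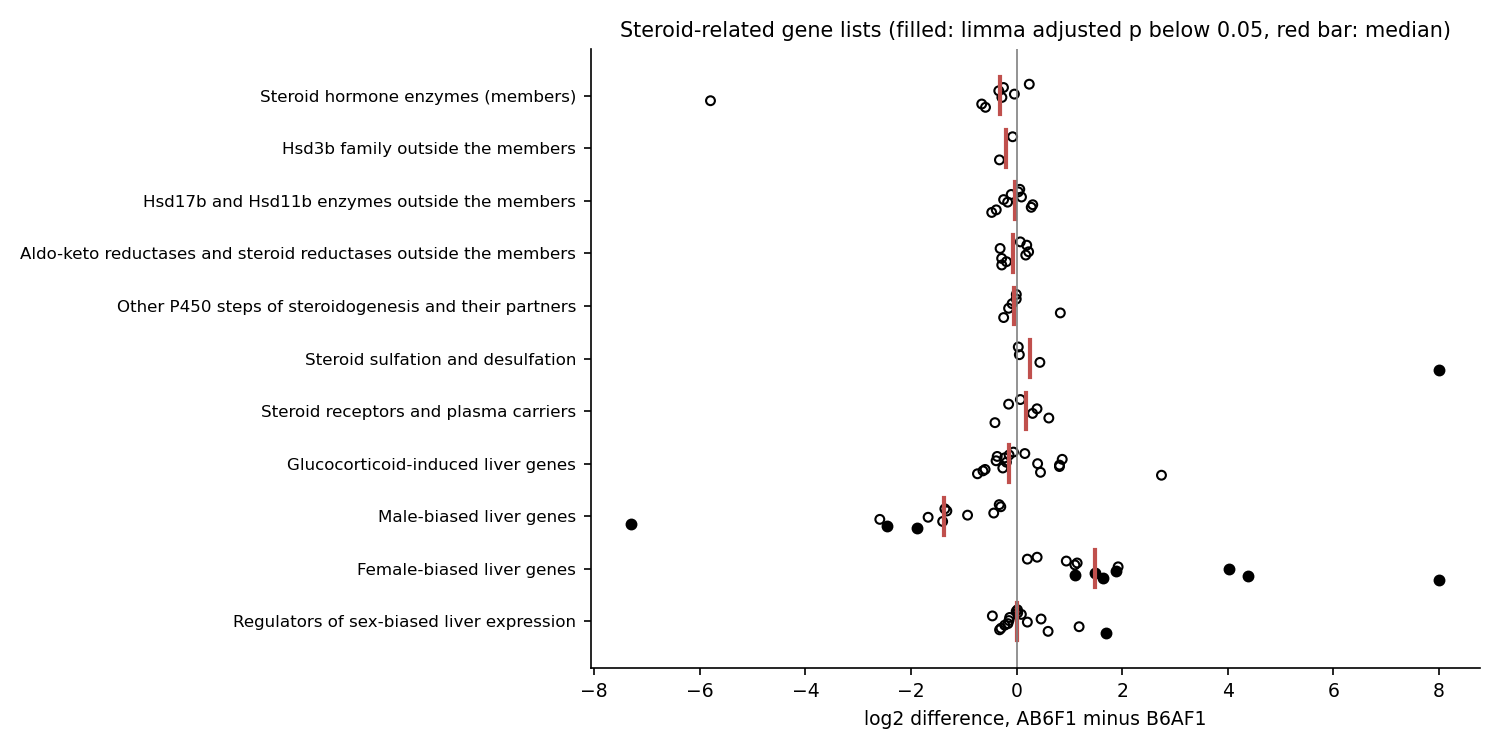
Log2 difference (AB6F1 minus B6AF1) of each tested gene of the steroid hormone enzymes and of 10 related lists; filled points passed limma and red bars are list medians. The first 5 rows have medians from -0.31 to -0.03, while male-biased genes centre at -1.38 and female-biased genes at 1.48.

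Because Hsd3b5 is known as a male-biased transcript, it was set beside sex-biased liver genes. All 12 tested male-biased genes were lower in AB6F1 (median -1.38), and 3 of them fell, the oxysterol hydroxylase Cyp7b1, the complement regulator Susd4 and the transporter Slco1a1. After median centring 7 of the 12 fell, and after cyclic loess 5 did. All 13 tested female-biased genes were higher (median 1.48), and 7 rose. Both lists were chosen with earlier results of these arrays known and give no independent evidence. Regulators of sex-biased expression were 8 higher and 8 lower (median 0.01; 5 higher and 11 lower after median centring), with Socs3, a brake on cytokine and growth hormone signalling, the one that rose. Trim24 was at 0.60 ± 0.19, Igf1, a target of growth hormone, at -0.32 ± 0.11, the growth hormone receptor Ghr at -0.29 ± 0.11 and Stat5b at -0.16 ± 0.15 (log2, SE), and none of these passed.

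Likeness of pattern was measured as the Euclidean distance between log2 signals centred on each gene's mean over the 4 arrays. The gene nearest to Hsd3b5 was Slco1a1, at a distance of 2.13, with 107.5 and 11.2 in AB6F1 against 7166.4 and 4197 in B6AF1. Like Hsd3b5, it was highest in B6AF1 replicate 1. Both were lowest in AB6F1 replicate 2, but at 15.5 for Hsd3b5 and 11.2 for Slco1a1. These signals lie under the limit of 60.9, where size is uncertain. Hsd3b5 and Slco1a1 were the only 2 genes tested with a log2 difference more negative than -5, and the distance takes in that size. The next nearest to Hsd3b5 were Serpina4-ps1, Susd4, the fatty acid elongase Elovl3 and Pomc, at distances of 3.95 to 4.18. Serpina4-ps1 read 58.3 and 48.8 in AB6F1, and Pomc read 10.3 in AB6F1 replicate 2, also under 60.9. For Cyp17a1, the one enzyme with a positive difference, the 5 nearest genes were Slc25a25, Atp2a3, Aspm, Zfp689 and Amer3, at 0.092 to 0.22. All of these but Slc25a25 were dim, with signals from 52 to 190, so their patterns are uncertain. With 4 arrays such distances describe these mice only.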

How the data were processed

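Gene expression was measured in 4 mouse livers on Affymetrix arrays from biotinylated cRNA, as the labels' protocols state. The deposited values are a linear intensity per probe set, a MAS5 signal per the submitters' processing notes, with no version given. From the values, the mean of each array is 500 once 2% of probe sets are trimmed at either end, which hides any shift common to the whole transcriptome. No scanner file or detection call was used.

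Of 45101 probe sets, 64 were controls; 34945 had 1 symbol in the platform annotation, 932 several and 9160 none. For 34741 probe sets the symbol was taken from RefSeq through the gene identifier, whether or not this changed it. Log2 signals without a pseudocount were fitted for 11748 genes with limma 3.58.1 in R 4.3.3 (lmFit, eBayes with an intensity trend; two-sided), adjusted by Benjamini-Hochberg at 0.05. SE are moderated, with 4.96 prior and 2 residual degrees of freedom. Group means are of linear signal, folds are powers of the log2 difference.

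On simulated data for this comparison (11748 genes, 20 runs, 200 of them changed), the fit called 29.4% of changes of 2-fold and 70.5% of those of 4-fold, and 5.9% of calls were false. Promoter sequences matched 7 of the 9 enzymes by symbol. The named genes were all probe sets of the 9 enzymes, genes of each steroid or sex-bias list past the threshold or among its 4 smallest p, Alb, and the 5 genes nearest in pattern to the enzymes with the largest positive and negative difference; H6pd, Hsd11b2, Hsd3b1, Nr3c1, Stat5b, Cyp11a1, Cyp21a1, Cps1, Col3a1, Col1a2, Cela1, Cela2a, Cpa1 and Ctrb1 were named beyond this, after values were seen. Tat was also named beyond this, after values were seen. The enzymes and lists were chosen with earlier results of these data known. Across all genes, same-numbered arrays did not deviate together (correlation -0.027). The labels do not pair the mice by number, and whether same-numbered mice were handled together was not tested.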

Additional observations from a re-analysis of the deposited data

How the results depend on the processing

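Hsd3b2, Hsd3b3, Hsd3b5, Hsd11b1 and Akr1c6 kept a negative difference under every alternative that gave a value; Hsd3b5 fell under the filter at the 75th percentile and has no value there. No enzyme passed with all arrays, against 1 after median centring, 1 with the replicate block, 1 at an adjusted p threshold of 0.1, and 0 to 2 with 1 array left out; over single probe sets the counts were 0, 1, 1, 1 and 0 to 1. Each single call among genes was Hsd3b5 (limma adjusted p = 0.00863 after median centring and 5.67e-05 with the replicate block), whose adjusted p over its 16 alternatives ran up to 0.453. Median centring took the median log2 difference of all genes to -0.11, against 0.02 without it. Of all genes, 25 passed; 50 did after median centring, 62 with the replicate block, 46 at the threshold of 0.1, 9 with the mean of all probe sets of a gene, none (0) with limma eBayes without the trend, where 1044 had an unadjusted p under 0.05, and 1 to 241 with 1 array left out. The labels do not pair the mice by number, so the block is given only as a variant of the fit. It lowered the SE of Hsd3b5 (0.85 to 0.30), Hsd17b6 (0.41 to 0.15) and Cyp17a1 (0.42 to 0.25) and raised it for the other enzymes. Across all genes the same-numbered arrays did not deviate together, which cannot exclude shared handling. Signs turned for Hsd17b2 (0.0015 after quantile normalization, 0.031 after cyclic loess, -0.22 to 0.14 with 1 array left out), Hsd17b6 (0.26 with the mean of probe sets, -0.94 to 0.27 with 1 array left out) and Cyp17a1 (-0.46 to 0.94 with 1 array left out). The mean of probe sets takes in the dim second Hsd17b6 probe set; the cause of the other changes was not tested. Dim signals, as for Hsd3b5 in AB6F1, limit the size of a difference.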
